A study of Homo sapiens with 52 samples.

Results

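The insulin-like growth factor axis is described here across human hepatoblastoma cell lines and macrophages by 10 genes: the ligand gene IGF2, the receptor genes IGF1R, IGF2R and INSR, the receptor substrate genes IRS1 and IRS2, and the binding protein genes IGFBP1, IGFBP2, IGFBP3 and IGFBP4. The genes were taken by their symbols, and each was present in the count table of the tumour lines (10 of 62696 genes) and in that of the macrophages (10 of 61209 genes). RNA-seq was done on 52 libraries to ask how inhibitors of Wnt and midkine signalling act on the tumour lines and on macrophages kept with them. HepG2 and Huh6 are lines grown from hepatoblastoma, the liver cancer of early childhood, and THP-1 cells, of a monocytic leukaemia, were turned into macrophage-like cells with the phorbol ester PMA. PKF118-310 is used as a Wnt inhibitor that interferes with the binding of beta-catenin to its TCF partners, and iMDK as an inhibitor of midkine (MDK), a heparin-binding growth factor.

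HepG2 cells received PKF118-310 at 0.2 µM (3 libraries) or 0.3 µM (1 library), iMDK at 5 or 10 µM (3 libraries each), or the empty vehicle (3 libraries). Huh6 cells received PKF118-310 at 0.2, 0.3 or 0.4 µM, iMDK at 5 or 10 µM, or the empty vehicle, with 3 libraries in each of the 6 groups. Inhibitor or vehicle was on the tumour cells for 48 hours. The 7 THP-1 groups of 3 libraries were macrophages kept 24 hours with HepG2 or with Huh6 cells, each of which had been exposed before to iMDK at 5 or 10 µM for 24 hours or had not, and macrophages cultured alone. All THP-1 cells had PMA at 80 ng/ml for 48 hours and 48 hours of rest, and they were sorted from the tumour cells before RNA isolation. The labels do not say which libraries of a group came from separate cultures, so the p-values measure the spread between these libraries, which may be technical. Each line stands for a single tumour, and in such bulk RNA fewer cells of a type and less RNA per cell cannot be told apart.

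IGF2 is a secreted growth factor of fetal tissues, made from the paternal allele in most of them, and is abundant in fetal liver and in hepatoblastoma. It signals through the tyrosine kinase receptor IGF1R and through INSR, the insulin receptor, which recruit the adaptor proteins IRS1 and IRS2 and through them PI3 kinase and AKT. IGF2R, the cation-independent mannose 6-phosphate receptor, takes IGF2 up for breakdown in lysosomes and does not signal as a kinase. The binding proteins hold IGFs in the extracellular fluid and limit or prolong their action. IGFBP1 is a liver product that insulin represses, IGFBP3 is the main carrier in serum, IGFBP2 is abundant in the fetus, and IGFBP4 is cut by the protease PAPPA.

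The promoter sequences of 5 genes are shown because these genes moved together in a line: IGFBP2, IGFBP3 and IGFBP4 in HepG2, and IGF1R and IGF2R in Huh6. Each is the 250 bases before a start site in RefSeq, GRCh38.p14, in the direction of transcription, and RefSeq's promoter table matched 8 of the 10 genes. It had no entry for IGF2 or IGFBP1, so IGFBP1, which also rose in HepG2, is not shown. Capitals mark the GC box GGGCGG, the CCAAT box and the TATA box TATAAA, searched on both strands. IGFBP2 has 3 start sites in that table, and the one nearest the annotated gene start is shown, at chr2:216632578-216632827 on the plus strand. The others lie at chr7:45921273-45921522 on the minus strand (IGFBP3), chr17:40443200-40443449 on the plus strand (IGFBP4), chr15:98648289-98648538 on the plus strand (IGF1R) and chr6:159968832-159969081 on the plus strand (IGF2R).
IGFBP2: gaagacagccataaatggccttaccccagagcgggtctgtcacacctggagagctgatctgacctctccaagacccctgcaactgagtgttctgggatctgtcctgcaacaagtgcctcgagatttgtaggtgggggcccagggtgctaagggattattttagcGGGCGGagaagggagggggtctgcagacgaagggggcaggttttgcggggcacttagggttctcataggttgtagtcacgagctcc
IGFBP3: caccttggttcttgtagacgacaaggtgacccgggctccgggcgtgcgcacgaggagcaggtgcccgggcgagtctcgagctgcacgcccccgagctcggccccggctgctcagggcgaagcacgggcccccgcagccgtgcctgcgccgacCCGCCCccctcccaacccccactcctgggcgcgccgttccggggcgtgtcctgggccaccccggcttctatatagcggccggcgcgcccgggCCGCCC
IGFBP4: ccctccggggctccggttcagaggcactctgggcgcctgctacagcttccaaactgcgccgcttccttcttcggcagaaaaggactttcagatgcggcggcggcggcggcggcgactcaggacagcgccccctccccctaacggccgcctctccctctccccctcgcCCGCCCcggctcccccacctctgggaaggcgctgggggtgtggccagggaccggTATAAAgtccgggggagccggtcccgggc
IGF1R: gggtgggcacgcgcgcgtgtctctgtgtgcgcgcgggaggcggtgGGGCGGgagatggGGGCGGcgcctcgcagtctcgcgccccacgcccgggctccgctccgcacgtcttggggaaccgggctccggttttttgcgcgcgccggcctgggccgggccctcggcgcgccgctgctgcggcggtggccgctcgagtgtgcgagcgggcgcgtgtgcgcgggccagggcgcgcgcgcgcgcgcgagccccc
IGF2R: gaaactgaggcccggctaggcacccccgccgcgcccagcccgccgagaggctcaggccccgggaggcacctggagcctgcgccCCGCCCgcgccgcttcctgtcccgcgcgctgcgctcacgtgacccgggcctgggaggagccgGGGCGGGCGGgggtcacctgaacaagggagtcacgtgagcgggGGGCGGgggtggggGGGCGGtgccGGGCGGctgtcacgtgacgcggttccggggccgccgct

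The GC content of these windows ran from 56.8% in IGFBP2 to 81.2% in IGF1R. A GC box was in 8 of the 8 matched windows, against 42.6% of 35116 windows of the same length. The TATA box was in the IGFBP4 window and in no other of the 8, against 10.7% of all windows. The CCAAT box was in the IRS2 window alone, against 32% of all windows. The TCF/LEF words CTTTGAT (2.26% of all windows) and CTTTGAA (3.8%), the FOXO word GTAAACA (2.98%) and the cyclic AMP response word TGACGTCA (1.65%) were in 0 of the 8. The word TGACNNNGC, the core of the NRF2 element, was in the IRS2 window alone, against 10.9% of all windows. GC boxes can overlap each other, as in the longest run of capitals in IGF2R. The absence of a word says only that these letters are not in this window, and IGF2 and IGFBP1 had no window to search.

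Library totals were 18284605 to 20043105 counts in HepG2, 18172462 to 19912509 in Huh6 and 12623973 to 16940245 in THP-1, so that 3 counts, the limit that a count of 0 allows, are 0.15 to 0.164, 0.151 to 0.165 and 0.177 to 0.238 CPM, counts scaled to the library total. Levels are in CPM scaled by TMM, and a level per kilobase divides by the summed exon length of the gene in GENCODE 29. All 20 liver and hepatoblastoma markers on a fixed list had counts in the lines, and their summed level was 39000 to 42300 CPM in vehicle HepG2 and 23800 to 24300 CPM in vehicle Huh6. Of 16 macrophage markers 12 had counts in THP-1 alone, with a summed level of 5910 to 6080 CPM, while CD68, FCGR1A, FCGR3A and C1QA were listed at 0. The same 16 summed to 1150 to 1290 CPM in vehicle HepG2 (8 with counts) and 63.1 to 66.7 CPM in vehicle Huh6 (11 with counts). THP-1 co-culture libraries held tumour RNA, as given with the results below. The antisense gene IGF2-AS and the readthrough gene INS-IGF2, which share the IGF2 locus, were listed at 0 in all 52 libraries, and how the counting assigned shared reads is not given in the sources used here.

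In cells with vehicle, HepG2 held far more IGFBP1, IRS1, IGFBP3 and IGFBP4 RNA than Huh6, and Huh6 held more IGFBP2 and IRS2. IGF2 was high in both. Of the 10 genes, 7 were higher and 3 lower in HepG2, where 40.4% of the 14469 genes tested were higher and 42.6% lower (83.0% in all). IRS1 and IGFBP3 passed the filter on low counts through HepG2 only, and without them 5 of 8 were higher and 3 lower.

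IGF2 lies on chromosome 11 at 2129112-2149603 on the minus strand (GRCh38). It had 1910, 1850 and 1810 CPM in vehicle HepG2, against 348, 351 and 363 CPM in vehicle Huh6. The libraries of the lines did not overlap, and the log2 difference was 2.35 ± 0.029 (SE, n = 3 each; adjusted p = 2.28e-32, edgeR's quasi-likelihood test). IGFBP1 (chromosome 7, 45888357-45893668, plus strand) had 1460, 1370 and 1330 CPM in vehicle HepG2, and its highest level in any of the 18 Huh6 libraries was 5.86 CPM. IGFBP3 (chromosome 7, 45912245-45921874, minus strand), the neighbour of IGFBP1, had 9.86, 6.96 and 6.3 CPM in vehicle HepG2 and a single read among the 3 vehicle Huh6 libraries. That is a ratio of 438, with a 95% counting interval of 78.2 to 17300. IRS1 (chromosome 2, 226731317-226799759, minus strand) had 111, 103 and 106 CPM in vehicle HepG2 and at most 10 counts in a Huh6 library. IGFBP4 (chromosome 17, 40443461-40457731, plus strand) was higher in HepG2 by 4.25 ± 0.069 on the log2 scale. IGF2R (chromosome 6, 159969099-160113507, plus strand) was higher by 1.58 ± 0.049 and IGF1R (chromosome 15, 98648539-98964530, plus strand) by 1.34 ± 0.064. INSR (chromosome 19, 7112255-7294034, minus strand) was the nearest to equal, with a log2 difference of -0.22 ± 0.038. IGFBP2 (chromosome 2, 216632828-216664436, plus strand) had 16.1, 12.5 and 14.9 CPM in vehicle HepG2, against 95, 100 and 90.7 CPM in vehicle Huh6. IRS2 (chromosome 13, 109752698-109786568, minus strand) had 5.01, 4.87 and 5.22 CPM in vehicle HepG2, against 24.5, 26.8 and 25.3 CPM in vehicle Huh6.

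Set side by side per kilobase, the order of levels also differed. In vehicle HepG2 it was led by IGFBP1 at 840 CPM per kilobase, then IGF2 at 266, IGFBP4 at 71.1, IGF2R at 34.2, INSR at 13.1, IRS1 at 10.8, IGF1R at 4.88, IGFBP2 at 3.05, IGFBP3 at 1.69 and IRS2 at 0.619. The library ranges of neighbours in that order did not overlap. In vehicle Huh6 it was led by IGF2 at 50.8 CPM per kilobase, then IGFBP2 at 20, INSR at 14.9, IGF2R at 11.2, IGFBP4 at 3.64, IRS2 at 3.14, IGFBP1 at 2.56 and IGF1R at 1.88. IRS1 and IGFBP3 were near 0, at 0.0286 and 0.00372 CPM per kilobase. The ranges of IGFBP4 and IRS2 overlapped, as did those of IRS1 and IGFBP3. The leading binding protein transcript per length was IGFBP1 in HepG2 and IGFBP2 in Huh6.

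**Figure D1:**
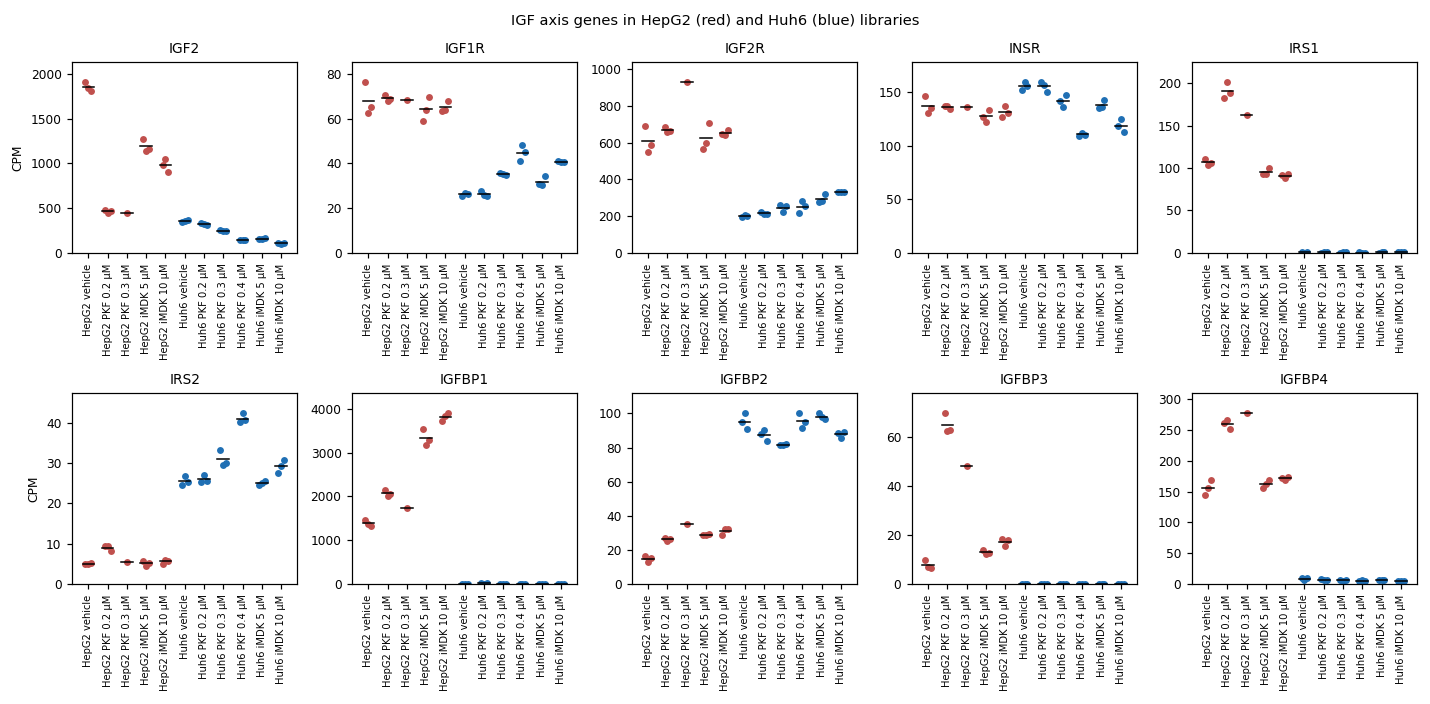
Level of each gene in CPM (y axis, linear, from 0) in each library of the HepG2 groups (red) and Huh6 groups (blue) along the x axis. Points are libraries and lines are group means. IGF2 had its highest levels in vehicle cells of each line, while IGFBP1 reached 3730 to 3900 CPM in HepG2 at 10 µM iMDK.

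IGF2 fell with both inhibitors in both lines, while the receptor, substrate and binding protein genes moved differently in each. In Huh6 the receptors IGF1R and IGF2R rose and INSR and IGFBP4 fell, and in HepG2 IGFBP1, IGFBP2 and IGFBP3 rose with both inhibitors. At 0.2 µM PKF118-310, 7 of the 10 genes tested rose and 1 fell in HepG2, where 35.9% of all genes rose and 36.1% fell (72.0% in all). With iMDK in HepG2, 3 rose and 3 fell at 5 µM (25.6% and 26% of all genes, 51.6% in all), and 4 rose and 2 fell at 10 µM (30% and 29%, 58.9% in all). In Huh6 8 of the 10 genes passed the filter on low counts, IRS1 and IGFBP3 being too low. Of these 8, 0 rose and 1 fell at 0.2 µM PKF118-310 (1.04% and 1.20% of all genes, 2.24% in all). At 0.3 µM 3 rose and 5 fell (15% and 13.5%, 28.5% in all), and at 0.4 µM 3 rose and 3 fell (28.9% and 27.9%, 56.8% in all). With iMDK in Huh6, 2 rose and 4 fell at 5 µM (17.3% and 18.3% of all genes, 35.6% in all), and 3 rose and 4 fell at 10 µM (26% and 26.1%, 52.1% in all). The median log2 fold change of the genes was 0.65 in HepG2 with PKF118-310, against -0.01 for all genes, and lay between -0.18 and 0.11 in the other inhibitor comparisons, against -0.01 to 0.02 for all genes. The comparisons within a line share their vehicle libraries. Groups that did not overlap vehicle were common among all genes. Their share in HepG2 was 73.5% at 0.2 µM PKF118-310, and 56.8% and 61.9% at 5 and 10 µM iMDK. In Huh6 it was 17.7%, 39.6% and 60.8% at 0.2, 0.3 and 0.4 µM PKF118-310, and 44.9% and 57.6% at 5 and 10 µM iMDK.

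IGF2, the ligand, fell in each of the 8 inhibitor comparisons. In HepG2 it had 480, 445 and 467 CPM at 0.2 µM PKF118-310, against 1910, 1850 and 1810 CPM with vehicle. The groups did not overlap, and the fold change was 0.25 (log2 -2 ± 0.041, adjusted p = 3.78e-31). The single library at 0.3 µM had 446 CPM, a log2 ratio of -2.06 to the vehicle mean, with no replicate. With iMDK, HepG2 held 1190 ± 74 CPM at 5 µM and 981 ± 70 CPM at 10 µM (SD, n = 3 each), beside 1850 ± 49 CPM with vehicle. These are log2 changes of -0.64 ± 0.04 and -0.92 ± 0.04, and the step between the doses was -0.28 ± 0.04 (adjusted p = 2e-06). At that step 2 of the 10 genes were higher and 1 lower in HepG2, where 7.59% of all genes were higher and 7.46% lower (15% in all).

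In Huh6 the fall of IGF2 was graded over the PKF118-310 doses. The means were 354 ± 8.1 CPM with vehicle, 322 ± 8.4 at 0.2 µM, 244 ± 9.2 at 0.3 µM and 138 ± 1.7 at 0.4 µM. No group overlapped the next. The log2 changes against vehicle were -0.14 ± 0.029, -0.54 ± 0.03 and -1.36 ± 0.032. The smallest of them was called over all libraries (adjusted p = 0.00307) but not without vehicle replicate 3 (0.0529) or without the 0.2 µM replicate 3 (0.058). IGF2 was lower by -0.40 ± 0.03 at 0.3 µM than at 0.2 µM and by -0.83 ± 0.032 at 0.4 µM than at 0.3 µM. Of the 8 genes, 3 were higher and 3 lower at 0.3 than at 0.2 µM (11.5% and 9.75% of all genes, 21.2% in all), and 3 were higher and 2 lower at 0.4 than at 0.3 µM (21.6% and 19.2%, 40.8% in all). With iMDK the Huh6 libraries had 155, 150 and 162 CPM at 5 µM and 104, 98.4 and 105 CPM at 10 µM, below all vehicle libraries. The log2 changes were -1.19 ± 0.031 and -1.79 ± 0.033, and the step from the lower dose to the higher was -0.61 ± 0.034. At that step 4 of the 8 genes were higher and 4 lower (12.7% and 12.2% of all genes, 24.9% in all).

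Markers on the mixed list of liver and hepatoblastoma moved beside IGF2 in HepG2 with PKF118-310. Of the 20 liver and hepatoblastoma markers 19 fell and 1 rose, with a median log2 fold change of -2.11, and their summed level was 12000 to 12900 CPM, against 39000 to 42300 CPM with vehicle. In HepG2 at 10 µM iMDK 13 fell and 5 rose, with a median of -0.34. In Huh6 at 0.4 µM PKF118-310 16 of the 19 tested fell and 3 rose (median -1.02), while the summed level was 23400 to 24800 CPM, against 23800 to 24300 CPM with vehicle. At 10 µM iMDK in Huh6 16 fell and 2 rose (median -0.60), with a summed level of 20500 to 21200 CPM. The shares of all genes that fell in these comparisons, in the same order, were 36.1%, 29%, 27.9% and 26.1%. The part of these markers' shift in the IGF2 values was not tested. The long noncoding RNA H19, the imprinted neighbour of IGF2, was low in Huh6, at 1.7 ± 0.23 CPM with vehicle. It fell by 1.41 on the log2 scale at 0.4 µM PKF118-310 (SE 0.36, adjusted p = 0.000913) and by 2.90 at 10 µM iMDK (SE 0.44, adjusted p = 2.78e-07). HepG2 vehicle libraries together had 1 H19 count. The second ligand gene, IGF1, was at 1.37 ± 0.51 CPM in vehicle Huh6 and fell by 2.05 on the log2 scale at 10 µM iMDK (SE 0.4, adjusted p = 2.98e-05). IGF1 had 0 counts in the vehicle HepG2 libraries, and INS and INSRR were listed at 0 in all libraries.

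Among the receptors, IGF1R rose in Huh6 and not detectably in HepG2. Huh6 had 35.7, 35.3 and 34.7 CPM at 0.3 µM PKF118-310 and 41, 48.2 and 45 CPM at 0.4 µM, against 25.5, 26.9 and 26.3 CPM with vehicle. At 10 µM iMDK it had 40.8, 40.7 and 40.5 CPM. All of these libraries lay above the vehicle range, and the log2 changes were 0.43 ± 0.061, 0.77 ± 0.06 and 0.63 ± 0.06 (adjusted p from 3.98e-07 to 6.98e-15). In HepG2 IGF1R stayed within 59.1 to 76.2 CPM in all 13 libraries, and at 0.2 µM PKF118-310 its fold change was 1.02 (95% interval from 0.941 up to 1.1; adjusted p = 0.727).

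IGF2R, the uptake receptor, rose in Huh6 with each inhibitor, with log2 changes of 0.29 ± 0.054 and 0.32 ± 0.054 at 0.3 and 0.4 µM PKF118-310. It reached 330, 333 and 330 CPM at 10 µM iMDK, against 196, 203 and 200 CPM with vehicle, a log2 change of 0.73 ± 0.053 (adjusted p = 1.17e-15). In HepG2 the vehicle libraries spread from 547 to 693 CPM. The change at 0.2 µM PKF118-310 was 0.13 ± 0.056 (adjusted p = 0.0344), which was not called without vehicle replicate 2 (adjusted p = 0.373), vehicle replicate 3 (0.145) or the 0.2 µM replicate 1 (0.085), nor by DESeq2 (0.237). The 0.3 µM library had 928 CPM, the highest of the 13.

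INSR, the receptor for insulin that also binds IGF2, fell in Huh6. It had 109, 112 and 110 CPM at 0.4 µM PKF118-310 and 118, 125 and 113 CPM at 10 µM iMDK, against 152, 159 and 156 CPM with vehicle. The groups did not overlap, and the log2 changes were -0.49 ± 0.036 and -0.39 ± 0.036. At 0.3 µM PKF118-310 the change was -0.13 ± 0.035, called (adjusted p = 0.00297) but not without the 0.3 µM replicate 2 (0.0521). In HepG2 INSR was called once, at 5 µM iMDK (log2 -0.11 ± 0.041, adjusted p = 0.0279), and not without vehicle replicate 1 (0.265) or the 5 µM replicates 1 (0.0575) or 2 (0.165).

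Of the receptor substrates, IRS1 could be followed only in HepG2. It had 182, 201 and 189 CPM at 0.2 µM PKF118-310, against 111, 103 and 106 CPM with vehicle, a log2 change of 0.83 ± 0.04 (adjusted p = 5.77e-20). The 0.3 µM library had 163 CPM, also above every vehicle library. With iMDK it moved the other way, with log2 changes of -0.17 ± 0.042 at 5 µM and -0.24 ± 0.042 at 10 µM. IRS2 in HepG2 had 9.41, 9.36 and 8.03 CPM at 0.2 µM PKF118-310, against 5.01, 4.87 and 5.22 CPM with vehicle (log2 0.83 ± 0.13, adjusted p = 7.91e-07), while the 0.3 µM library had 5.32 CPM. In Huh6 IRS2 rose with dose, to 40.2, 42.4 and 40.7 CPM at 0.4 µM PKF118-310, against 24.5, 26.8 and 25.3 CPM with vehicle (log2 0.69 ± 0.06). At 10 µM iMDK its change was 0.19 ± 0.063 (adjusted p = 0.00804), not called without the 10 µM replicate 3 (0.0661).

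**Figure D2:**
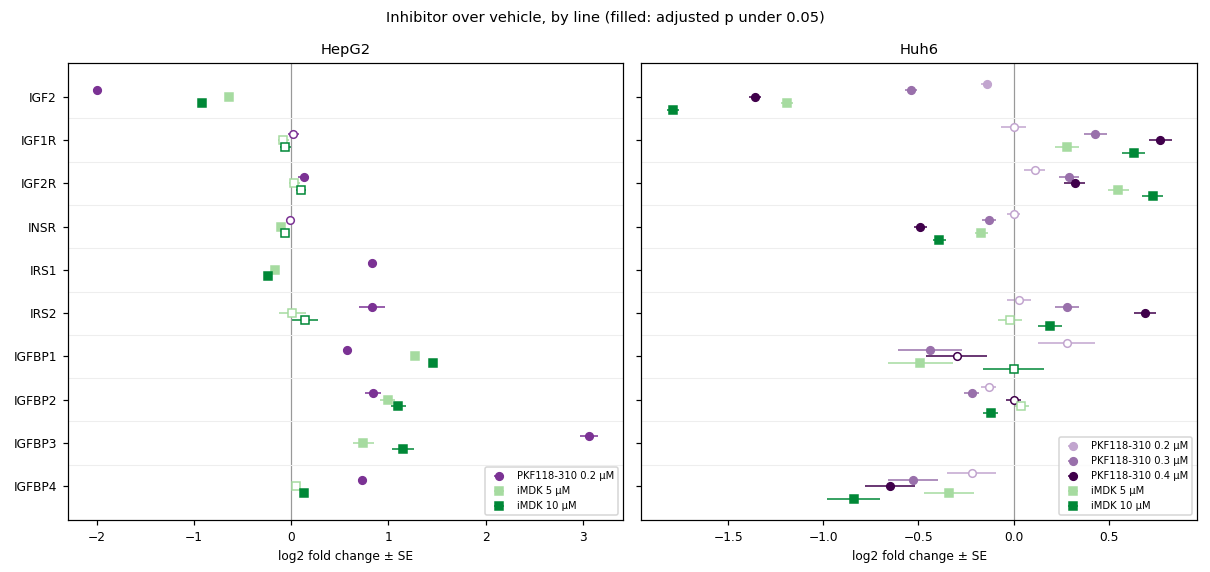
Log2 fold change of each inhibitor group over vehicle (x axis, ± SE) for each gene (y axis), HepG2 on the left and Huh6 on the right with separate x scales. Filled symbols passed an adjusted p of 0.05. In HepG2 the binding protein genes lie right of 0 and IGF2 left of it, and in Huh6 IGF1R and IGF2R lie on the right and IGF2, INSR and IGFBP4 on the left at the higher doses.

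Among the comparisons of inhibitor with vehicle, IGFBP3 had the largest log2 change of the 10 genes. In HepG2 it had 69.4, 62.1 and 62.7 CPM at 0.2 µM PKF118-310, against 9.86, 6.96 and 6.3 CPM with vehicle. The groups did not overlap, and the fold change was 8.37 (log2 3.06 ± 0.092, adjusted p = 3.39e-26). The 0.3 µM library had 47.8 CPM. With iMDK IGFBP3 had 13.9, 12.3 and 12.6 CPM at 5 µM and 18.3, 15.3 and 18 CPM at 10 µM, again above every vehicle library. The log2 changes were 0.74 ± 0.11 and 1.15 ± 0.11.

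IGFBP1 rose in HepG2 with both inhibitors. It had 3550, 3180 and 3290 CPM at 5 µM iMDK and 3730, 3850 and 3900 CPM at 10 µM, against 1460, 1370 and 1330 CPM with vehicle. The log2 changes were 1.27 ± 0.035 and 1.46 ± 0.035, and the fold change at 10 µM was 2.76. At 0.2 µM PKF118-310 the libraries had 2140, 2010 and 2060 CPM (log2 0.57 ± 0.035), and the 0.3 µM library 1740 CPM. The inhibitors were not tested against each other. In Huh6 IGFBP1 stayed within 2.61 to 5.86 CPM. It was called lower at 5 µM iMDK (log2 -0.49 ± 0.17, adjusted p = 0.0179), but not without vehicle replicate 3 (0.068) or the 5 µM replicate 2 (0.103). At 0.3 µM PKF118-310 its change of -0.44 ± 0.17 (adjusted p = 0.0448) was lost without any single one of the 6 libraries compared (adjusted p from 0.0509 to 0.174).

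IGFBP2 rose in HepG2 to 26.7, 25 and 26.3 CPM at 0.2 µM PKF118-310, against 16.1, 12.5 and 14.9 CPM with vehicle (log2 0.84 ± 0.079). With iMDK the log2 changes were 0.99 ± 0.078 at 5 µM and 1.10 ± 0.077 at 10 µM. In Huh6, where it was the most abundant binding protein transcript per kilobase, it fell slightly, by 0.22 on the log2 scale at 0.3 µM PKF118-310 (SE 0.04) and by 0.12 at 10 µM iMDK (SE 0.039). The call at 10 µM iMDK (adjusted p = 0.0102) was lost without vehicle replicate 2 (0.137) or the 10 µM replicate 2 (0.0507). At 0.4 µM PKF118-310 its log2 change was 0 (adjusted p = 0.936).

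IGFBP4 moved in opposite directions in the lines. In HepG2 it had 262, 266 and 251 CPM at 0.2 µM PKF118-310, against 145, 155 and 168 CPM with vehicle (log2 0.73 ± 0.039, adjusted p = 1.43e-18), and 277 CPM in the 0.3 µM library. In Huh6 it had 5.16, 5.9 and 4.28 CPM at 0.4 µM PKF118-310 and 4.47, 4.51 and 4.4 CPM at 10 µM iMDK, against 8.55, 6.74 and 8.71 CPM with vehicle. These groups did not overlap the vehicle libraries, and the log2 changes were -0.65 ± 0.13 and -0.84 ± 0.14. With iMDK in HepG2 the change was 0.05 ± 0.04 at 5 µM (adjusted p = 0.338) and 0.13 ± 0.04 at 10 µM (0.00498), the call at 10 µM being lost without vehicle replicate 1 (0.0919). In Huh6 at 5 µM iMDK the change of -0.34 ± 0.13 (adjusted p = 0.0319) was lost without vehicle replicate 1 (0.128) or 3 (0.15) and without the 5 µM replicate 1 (0.127) or 3 (0.077).

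The difference of response between the lines, HepG2 minus Huh6, was tested as an interaction at matched doses. At 0.2 µM PKF118-310 5 genes had a higher and 1 a lower response in HepG2 (28.3% and 28.1% of all genes, 56.3% in all). IRS1, among the 5, entered this fit through HepG2 only, with 10 counts summed over the 0.2 µM Huh6 libraries and 17 over the vehicle ones. Of the 8 genes that passed the filter in both lines, 4 had a higher and 1 a lower response. At 5 µM iMDK 4 had a higher and 2 a lower one (15.6% and 17%, 32.6% in all), and at 10 µM iMDK 5 had a higher and 2 a lower one (21% and 20.7%, 41.7% in all). IGF2 changed sides between the inhibitors. Its fall was deeper in HepG2 at 0.2 µM PKF118-310, with a difference of -1.85 ± 0.042 (adjusted p = 2.29e-35). It was deeper in Huh6 with iMDK, with differences of 0.57 ± 0.048 at 5 µM and 0.91 ± 0.05 at 10 µM (adjusted p = 1.6e-11 and 6.79e-21). The response of IGFBP1 was higher in HepG2 by 1.78 ± 0.14 and 1.5 ± 0.13 at 5 and 10 µM iMDK, and that of IGFBP2 by 0.97 ± 0.085 and 1.26 ± 0.088. IGF1R and IGF2R responded less in HepG2 at 10 µM iMDK, by -0.66 ± 0.082 and -0.60 ± 0.058. The doses were matched in concentration only, and how far each line's target was inhibited was not measured in these files.

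**Figure D3:**
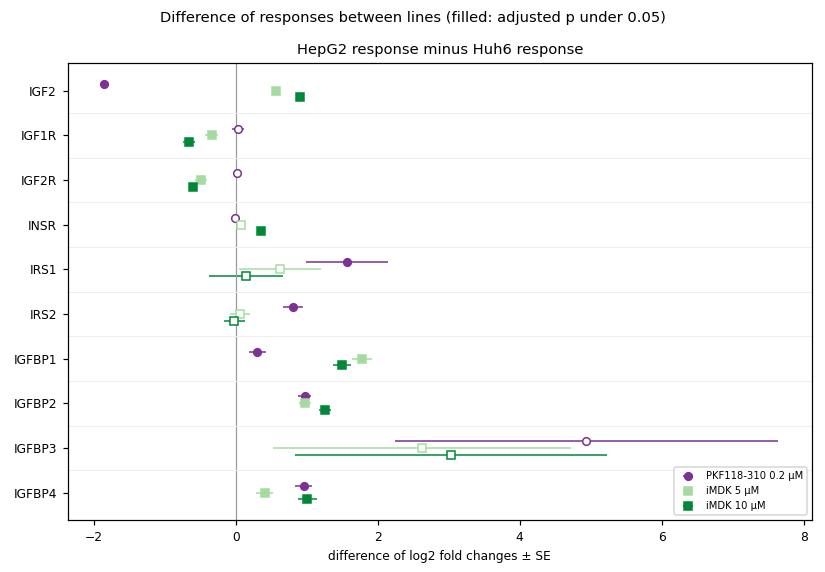
Difference between the log2 fold changes of HepG2 and Huh6 at the same dose (x axis, HepG2 minus Huh6, ± SE) for each gene (y axis), filled where the adjusted p passed 0.05. IGF2 lies at -1.85 for 0.2 µM PKF118-310 and at 0.57 and 0.91 for 5 and 10 µM iMDK, while the wide bars of IGFBP3 and IRS1 go with their near absence from Huh6.

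Other genes of the pathway were read from fixed lists. Of all genes, 35.9% rose and 36.1% fell in HepG2 at 0.2 µM PKF118-310, and 30% and 29% at 10 µM iMDK. In Huh6 28.9% rose and 27.9% fell at 0.4 µM PKF118-310, and 26% and 26.1% at 10 µM iMDK. The list counts below stand beside these shares, and the lists were not tested against them. Of 7 tested genes among the other IGF binding proteins and the factors that process them, 5 rose and 0 fell in HepG2 at 0.2 µM PKF118-310 (median log2 0.95), and 6 rose and 1 fell at 10 µM iMDK (median 1.24). IGFBP6, which prefers IGF2 over IGF1, had 56.3 ± 3.2 CPM at 10 µM iMDK and 5.25 ± 0.72 CPM with vehicle, a log2 change of 3.43 ± 0.087 (adjusted p = 1.22e-27). It rose by 2.13 ± 0.098 at 0.2 µM PKF118-310. IGFBP7, a related secreted protein of low IGF affinity, rose by 1.83 ± 0.19 at 0.2 µM PKF118-310. The protease gene PAPPA2 rose by 3.67 ± 0.55 at 0.2 µM PKF118-310 and 2.25 ± 0.66 at 10 µM iMDK, where the vehicle libraries had 5 counts in all. In Huh6 the counts were 3 higher and 1 lower of 6 at 0.4 µM PKF118-310 (median 0.08) and 2 higher and 1 lower at 10 µM iMDK (median 0.05).

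Among 13 adaptor genes, GRB10, whose protein binds the insulin and IGF1 receptors and dampens their signal, stood at 299 ± 6.7 CPM at 0.2 µM PKF118-310 in HepG2 and 35.1 ± 1.1 CPM with vehicle (log2 3.09 ± 0.043, adjusted p = 3.15e-36). At 10 µM iMDK it rose by 1.92 ± 0.045, and in Huh6 by 0.38 ± 0.037 at 0.4 µM PKF118-310 and 0.47 ± 0.037 at 10 µM iMDK. Of the adaptors as a list, 6 rose and 5 fell in HepG2 at 0.2 µM PKF118-310 (median 0.06), and 3 rose and 7 fell at 10 µM iMDK (median -0.12). In Huh6 5 rose and 3 fell at 0.4 µM PKF118-310 (median 0.10), and 4 rose and 4 fell at 10 µM iMDK (median -0.08).

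Of 19 tested genes of PI3 kinase, AKT and TOR signalling, 12 rose and 5 fell in HepG2 at 0.2 µM PKF118-310 (median 0.27), and 5 rose and 5 fell at 10 µM iMDK (median 0.03). In Huh6 12 rose and 3 fell both at 0.4 µM PKF118-310 (median 0.18) and at 10 µM iMDK (median 0.19). PIK3R1, the regulatory subunit that docks on IRS proteins, fell in all 4 of these comparisons, by 0.82 (SE 0.073) and 0.24 (SE 0.069) on the log2 scale in HepG2 and by 0.89 (SE 0.033) and 0.67 (SE 0.032) in Huh6. RICTOR, a subunit of TOR complex 2, rose by 0.91 ± 0.071 in HepG2 at 0.2 µM PKF118-310.

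Of 11 tested FOXO genes and genes known to answer to FOXO or insulin, 2 rose and 7 fell in HepG2 at 0.2 µM PKF118-310 (median -0.52). BCL6 fell by 2.63 (SE 0.12), PPARGC1A by 2.46 (SE 0.069) and G6PC1 by 1.86 (SE 0.23) on the log2 scale, and TRIB1 rose by 2.12 ± 0.04. PPARGC1A is a coactivator and G6PC1 the last enzyme of glucose release, both of fasting liver. At 10 µM iMDK 4 rose and 4 fell (median 0.06). In Huh6 3 rose and 6 fell at 0.4 µM PKF118-310 (median -0.08), and 2 rose and 5 fell at 10 µM iMDK (median -0.20). TXNIP, which answers to glucose, fell by 2.74 (SE 0.16) and 0.73 (SE 0.12) in these Huh6 comparisons. Of 8 genes for factors known to act on IGF2 transcription, 4 rose and 3 fell in HepG2 at 0.2 µM PKF118-310 (median 0.10), and 2 rose and 3 fell at 10 µM iMDK (median -0.05). In Huh6 1 rose and 3 fell at 0.4 µM PKF118-310 (median 0.07), and 0 rose and 5 fell at 10 µM iMDK (median -0.16). CEBPA fell in these 4 comparisons, by 1.21 (SE 0.1) in HepG2 with PKF118-310 and by 0.69 (SE 0.12) in Huh6 with iMDK.

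The genes whose pattern was most like a member's were found by Pearson's r of log2 CPM over the 31 tumour libraries after each line's own mean was taken off, among 9053 genes. The libraries share vehicle groups, lines and treatments, so r is a description. For IGF2 the nearest were FGFR3 (r = 0.978), RASSF4 (0.978) and A1CF (0.976), and within each line r was 0.96 or higher for each of them. For IGF1R the nearest was TAGLN (r = 0.929), with r of -0.03 within HepG2 and 0.96 within Huh6. For IGFBP2 it was TUSC3 (r = 0.893), with r of 0.92 within HepG2 and 0.2 within Huh6. For IGFBP1 it was ATG13 (r = 0.872) and for IGFBP4 TSC22D1 (r = 0.86).

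THP-1 macrophages alone had a different set of these genes. IGF2R was their most abundant member per kilobase, at 80.3 CPM per kilobase, then IGFBP4 at 32.2, IRS2 at 11.7, INSR at 8.11, IGFBP2 at 2.82, IGF1R at 0.662 and IRS1 at 0.388. IGF2 had 0, 1 and 0 counts in the 3 monoculture libraries, and IGFBP1 and IGFBP3 had 0 in all 3. IGF2R had 1330, 1460 and 1510 CPM, IRS2 91.3, 94.7 and 98.9 CPM and INSR 95.8, 79.6 and 78.9 CPM.

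Tumour RNA was present in the sorted THP-1 libraries. The share of HepG2 RNA, taken as the median over 19 liver markers of the level above monoculture divided by the level in the tumour group of the same iMDK dose, was 6.81%, 7.59% and 7.74% in the libraries kept with untreated HepG2, and single markers gave 0.857% to 18.3%. It was 4.54%, 3.43% and 5.34% with HepG2 given 5 µM iMDK, and 2.76%, 1.44% and 3.27% with HepG2 given 10 µM. With untreated Huh6 it was 1.69%, 0.726% and 0.418%, and with Huh6 given iMDK 0.162% to 0.361%. The summed level of the 20 liver and hepatoblastoma markers was 2860 to 3500 CPM with untreated HepG2 and 184 to 535 CPM with untreated Huh6, against 57.3 to 72 CPM alone, where AFP, APOB, FGB, FGG, TTR, DLK1, PEG10 and KRT19 were at 0. With HepG2 20 of the 20 were higher than alone (12.0% of all genes) and with Huh6 13 (1.32% of all genes).

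After co-culture with HepG2, 7 of the 10 genes were higher and 0 lower than in macrophages alone. Of all genes 12.0% were higher and 9.68% lower (21.6% in all). The largest differences were those of IGFBP1, IGF2 and IGFBP3. IGFBP1 and IGF2 were abundant in HepG2, whereas IGFBP3 had only 6.3 to 9.86 CPM in vehicle HepG2. IGF2 had 216, 198 and 196 CPM with HepG2, against 0, 0.0598 and 0 CPM alone, a ratio of 10100 with a counting interval of 1800 to 397000 (adjusted p = 4.89e-10). IGFBP1 had 228, 309 and 319 CPM with HepG2 and was at least 4650-fold higher than alone, when 3 counts are allowed over the monoculture group (adjusted p = 1.06e-11). IGFBP1, IGF2 and IGFBP3, at or near 0 alone, passed the filter through co-culture libraries. Without them, the genes called higher were IRS2, IGFBP4, INSR and IRS1, as given below. IGFBP3 had 3.43, 2.16 and 0.951 CPM with HepG2 and was at least 36.8-fold higher than alone (adjusted p = 0.00477), not called by DESeq2 (0.0818). The tumour share of each library, applied to the HepG2 levels, would give 122 to 138 CPM of IGF2 against 186 to 226 CPM observed (here CPM without TMM), and 91.1 to 104 CPM of IGFBP1 against 238 to 315 CPM observed. These excesses over monoculture are 10.4% to 12.6% of the HepG2 level for IGF2, inside the range of the markers, and 17.8% to 23.6% for IGFBP1. Of the IGFBP1 values, that of replicate 1 (17.8%) lay under that library's highest marker (18.2%), and those of replicates 2 (23.6%) and 3 (22.7%) lay above theirs (17% and 18.3%). For IGFBP3 the tumour share would give 0.505 to 0.575 CPM, against 0.903 to 3.58 CPM observed. Its excess was 48.2%, 29.7% and 12.2% of a low HepG2 level, 7.43 CPM. In replicates 1 and 2 that lay above the highest marker, and in replicate 3 under it. Tumour RNA and expression by the macrophages cannot be told apart in these values.

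IRS2 and IGFBP4 had levels of their own in THP-1 alone. IRS2 had 116, 118 and 130 CPM with HepG2, against 91.3, 94.7 and 98.9 CPM alone, a log2 change of 0.35 ± 0.069 (adjusted p = 0.000671). The groups did not overlap, as for 35.9% of all genes, and the tumour share would give 0.33 to 0.375 CPM. IGFBP4 had 87.8, 93 and 89 CPM with HepG2, against 66.9, 78.1 and 67.5 CPM alone (log2 0.34 ± 0.086, adjusted p = 0.00573), and the tumour share would give 10.3 to 11.7 CPM. INSR had 105, 103 and 99.3 CPM with HepG2, and its change of 0.27 ± 0.09 (adjusted p = 0.0332) was lost without monoculture replicate 2 (0.127) or 3 (0.14) and without co-culture replicate 1 (0.0874) or 2 (0.075). It was also lost with no filter (0.0509) or only these groups fitted (0.0505), and with the replicate number as a block the adjusted p was 0.00294. The tumour share would give 8.99 to 10.2 CPM of INSR. Observed were 94.3 to 110 CPM, against a monoculture mean of 85.2 CPM, both without TMM. IRS1 had 4.61, 8.64 and 9.91 CPM with HepG2, against 5.49, 2.51 and 3.58 CPM alone (log2 1.00 ± 0.35, adjusted p = 0.0452). These groups overlapped, the tumour share would give 7.02 to 7.98 CPM, and the call was lost without monoculture replicate 2 (0.195) or 3 (0.129) or co-culture replicate 2 (0.138) or 3 (0.151). With the block the adjusted p of IRS1 was 0.0121. With the estimated tumour reads subtracted its log2 change turned to -2.10 (adjusted p = 0.0193). The estimate exceeded the whole observed level of IRS1 in replicate 1 (7.02 against 4.81 CPM without TMM). In replicates 2 and 3 it left less than the monoculture mean of 3.9 CPM. The turn therefore follows from the subtraction and does not show a fall of IRS1. IGF1R, IGF2R and IGFBP2 were not called.

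**Figure D4:**
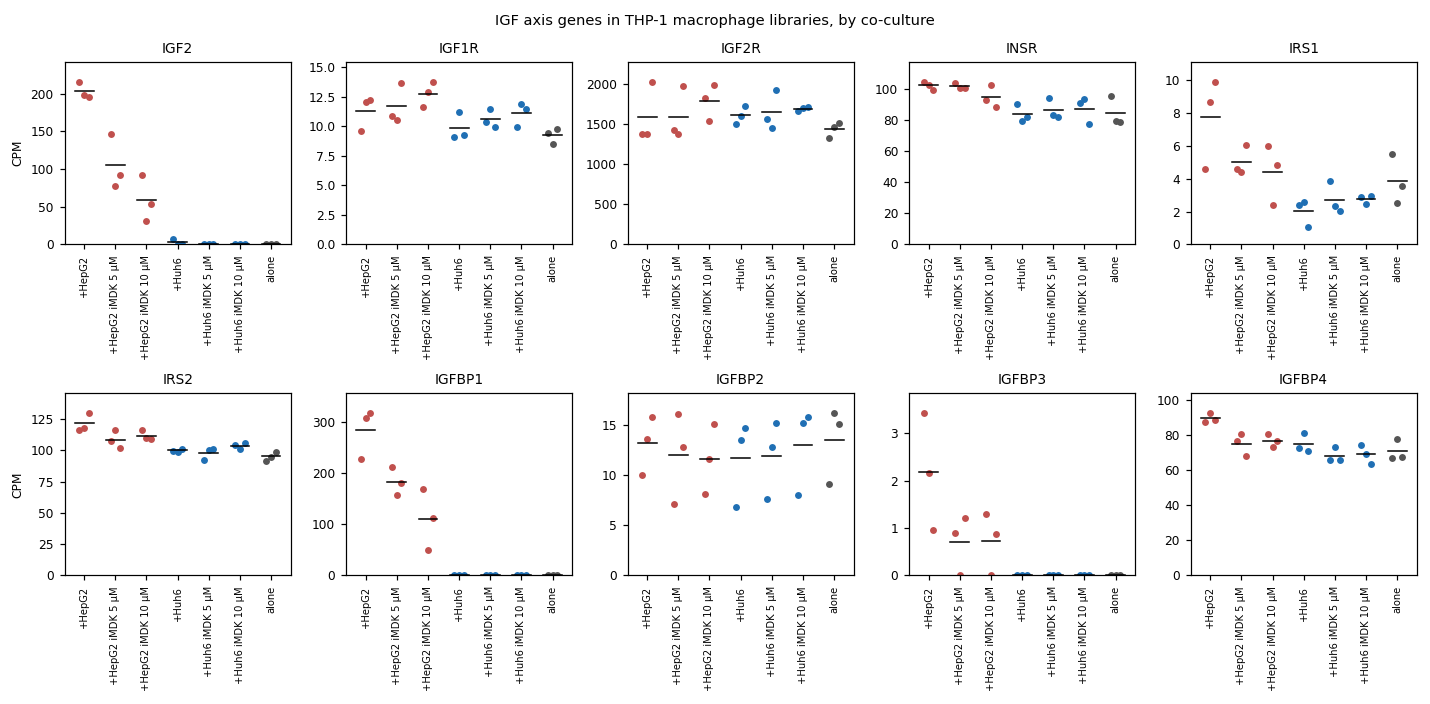
Level of each gene in CPM (y axis, linear, from 0) in THP-1 libraries kept with HepG2 (red), with Huh6 (blue) or alone (grey), along the x axis by the iMDK dose given to the tumour cells. Points are libraries and lines group means. IGF2 and IGFBP1 are near 0 alone and with Huh6, and reach 216 and 319 CPM with untreated HepG2.

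With Huh6, 1 of the 10 genes was higher and 0 lower than in macrophages alone (1.32% and 0.503% of all genes, 1.83% in all). That gene was IGF2, with 108, 8 and 10 counts in the 3 libraries, or 6.67, 0.589 and 0.689 CPM. The ratio to monoculture was 138, with a counting interval of 24.4 to 5510 (adjusted p = 0.0266, and 0.000791 with the replicate number as a block). IGF2 did not pass the filter on low counts when only these groups were fitted, so its call depends on the other THP-1 groups in the fit, and with the estimated tumour reads subtracted the adjusted p was 0.855. Replicate 1, which had the highest IGF2, also had the highest tumour share of the Huh6 co-cultures. Without it the adjusted p was 0.352, and it was 0.147, 0.0949 and 0.112 without monoculture replicate 1, 2 and 3. IGFBP1 had 0.247, 0.884 and 0.482 CPM with Huh6, at least 8.42-fold higher than alone and not called (adjusted p = 0.256).

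Between the co-cultures, 7 of the 10 genes were higher and 0 lower with HepG2 than with Huh6 (9.13% and 7.55% of all genes, 16.7% in all). Among the 7 are IGF2, IGFBP1 and IGFBP3, which passed the filter through co-culture libraries, as above. The others were INSR, IRS1, IRS2 and IGFBP4. IGF2 differed by 6.19 ± 0.5 and IGFBP1 by 9.08 ± 0.45 on the log2 scale, and IGFBP3 was at least 33.5-fold higher with HepG2. IRS2 differed by 0.28 (adjusted p = 0.00745), and IRS1 by 1.94 (0.000951), which turned to -1.18 (0.23) with the estimated tumour reads subtracted. This turn too follows from the size of the IRS1 estimate in the HepG2 co-cultures, so it decides nothing. The calls of INSR (adjusted p = 0.0329) and IGFBP4 (0.0386) were each lost when any of 4 libraries was left out, at adjusted p from 0.0623 to 0.126. That of IGFBP4 was also lost with the estimated tumour reads subtracted (0.103), with no filter (0.0784) and with only these groups fitted (0.0514). With the replicate number as a block the adjusted p was 0.00278 for INSR and 0.00481 for IGFBP4. The deviations of same-numbered libraries of these groups had r of 0.1 to 0.43. These comparisons share the HepG2 co-culture libraries with the one against monoculture.

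Exposure of HepG2 to iMDK before co-culture went with less IGF2 and IGFBP1 RNA in the macrophage libraries. The liver markers were lower too, at 623 to 1280 CPM summed at 10 µM, against 2860 to 3500 CPM with untreated HepG2, where 16 of the 20 fell and 0 rose. Their part in the values below was not tested. At 10 µM 0 of the 10 genes rose and 2 fell (0.645% and 2.7% of all genes, 3.34% in all). IGF2 had 91.7, 30.7 and 53.8 CPM, against 216, 198 and 196 CPM with untreated HepG2 (log2 -1.79 ± 0.37, adjusted p = 0.00719, and -1.93 and 1.25e-06 with the replicate number as a block). IGFBP1 had 169, 50.4 and 113 CPM, against 228, 309 and 319 CPM (log2 -1.37 ± 0.26, adjusted p = 0.00476, and -1.46 and 6.71e-05 with the block). Neither group overlapped the untreated co-culture, as for 17% of all genes. Replicate 2 was the lowest for both genes and also had the lowest tumour share, 1.44%. The level in HepG2 is known here only from separate cultures with 48 hours of iMDK, whereas the co-cultured cells had 24 hours of it and then 24 hours with macrophages. Against those cultures the IGFBP1 excess was 1.31% to 4.33% of the level at 10 µM, and 17.8% to 23.6% for untreated HepG2 against vehicle cells. That of IGF2 was 3.11% to 9.19%, against 10.4% to 12.6%. The call of IGF2 was lost with DESeq2 (log2 -1.81, adjusted p = 0.213) or when the estimated tumour reads were subtracted (-1.19, 0.155). That of IGFBP1 was lost when they were subtracted, with a larger change (-3.28, 0.0753), or when only these groups were fitted (-1.39, 0.0614). At 10 µM the tumour estimate for IGFBP1 exceeded the whole observed level in replicates 2 (55.7 against 50.5 CPM) and 3 (126 against 109 CPM). The change of -3.28 therefore follows from the subtraction and does not measure a fall in the macrophages. With subtraction IGF1R was called higher (0.66, 0.0145), beside 0.17 (0.603) without it. From the untreated co-cultures, at 10.1 to 12.4 CPM of IGF1R without TMM, the subtraction took 4.46 to 5.07 CPM. That left less than the monoculture mean of 9.27 CPM, so this call does not show a rise.

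At 5 µM iMDK 0 of the 10 genes were called by edgeR (0.0903% of all genes) and 0 by DESeq2, while IGF2, IRS2, IGFBP1 and IGFBP4 had an unadjusted p under 0.05, which makes 4. IGF2 had 146, 77.5 and 91.5 CPM, below all 3 libraries with untreated HepG2 (log2 -0.95, adjusted p = 0.347), and IGFBP1 212, 158 and 181 CPM (log2 -0.63, adjusted p = 0.39). Same-numbered THP-1 libraries deviated together, and with the replicate number as a block IGF2 was lower by -1.04 (adjusted p = 0.00282) and IGFBP4 by -0.26 (0.0336) at 5 µM. At 10 µM the block added IGFBP4, lower by -0.22 (0.0368). With Huh6 exposed to iMDK 0 of the 10 genes were called by edgeR at 5 µM (0.0129% of all genes) and 0 at 10 µM (0.0581%). At each dose 1 gene, IGF2, had an unadjusted p under 0.05, and DESeq2 called 0 at 5 µM and 1 at 10 µM. The log2 change of IGF2 was -2.54 ± 0.9 at 5 µM (adjusted p = 0.806, and 0.159 with the block) and -3.55 ± 1 at 10 µM (0.335). At 10 µM it passed with DESeq2 (-3.53, 0.0411) and with the block (-3.50, 0.0343). These changes rest on 126 summed IGF2 counts with untreated Huh6, 21 at 5 µM and 11 at 10 µM. A single untreated library held 6.67 CPM, against a group median of 0.689 CPM. With a library left out the change ran from -3.25 to -0.43 at 5 µM and from -3.99 to -1.44 at 10 µM. The tumour share was also lower with iMDK than with untreated Huh6, and its part in these values was not tested.

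**Figure D5:**
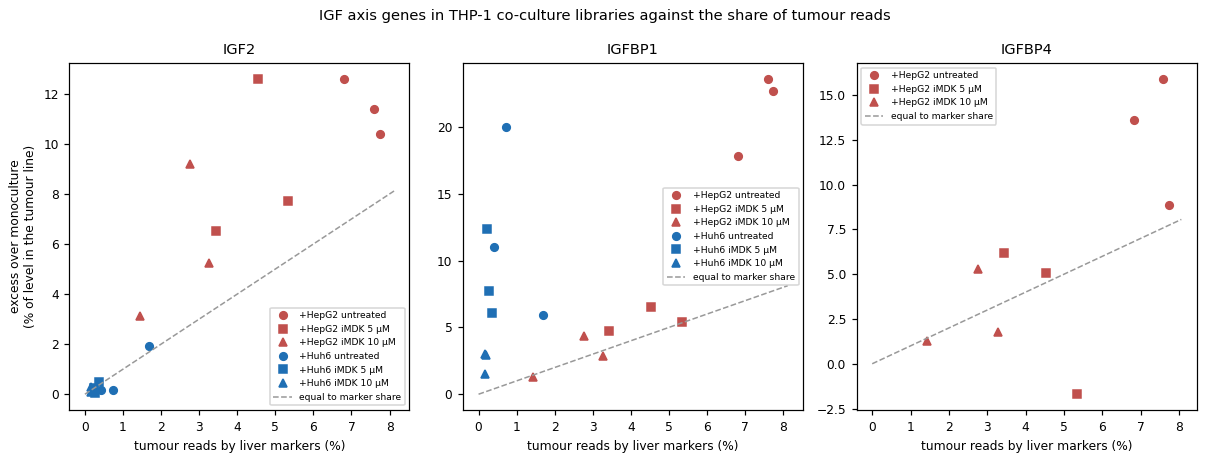
Level of IGF2, IGFBP1 and IGFBP4 above THP-1 monoculture as a percentage of the level in the matching tumour line (y axis), against the share of tumour reads by liver markers in percent (x axis), in co-culture with HepG2 (red) or Huh6 (blue). Each point is a library and the dashed line marks equal percentages. IGFBP4 is shown for co-culture with HepG2 only. IGF2 and IGFBP1 with untreated HepG2 lie above the line, at 10.4% to 12.6% and 17.8% to 23.6%. The Huh6 points of IGFBP1 rest on low Huh6 levels without TMM, 4.27 CPM with vehicle, 3.07 CPM at 5 µM iMDK and 4.25 CPM at 10 µM iMDK.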

How the data were processed

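PolyA-selected, strand-specific libraries were made from column-purified, DNase-treated RNA, per the labels' protocols. The deposited values are raw counts of reads per gene, in a table of the tumour lines and a separate one of THP-1. Per the submitters' processing notes, the build was GRCh38 and the tools included featureCounts, STAR 2.7.3a, edgeR 3.36 and SAMtools 1.16.1. Neither the annotation release nor the strand setting of the counting is given in the sources used here.

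Counts of all genes past edgeR's filterByExpr were fitted for each line and for THP-1 (edgeR 4.0.16 in R 4.3.3, TMM scaling, two-sided quasi-likelihood test, Benjamini-Hochberg adjustment over all genes tested, threshold 0.05): 14111 genes in HepG2, 15029 in Huh6 and 15500 in THP-1. The single HepG2 library at 0.3 µM had no test. Adjusted p values are from these fits, and SE is the size of the log2 fold change divided by the square root of F. Log2 CPM used a prior count of 2. The scripts were tested on simulated data. Bounds and intervals (95%, exact) cover counting error only.

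The genes and lists were chosen with earlier results of these data known. The 10 genes are always given, and of each list the passing genes with the largest changes are named. The share of tumour RNA used liver markers of at least 100 CPM in the line. Replicates differed by more than sampling noise in all 51 pairs, so no library was counted as a copy.

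Replicate numbers are shared between groups. The correlation of deviations from group means of same-numbered libraries was -0.1 to 0.12 in HepG2, -0.09 to 0.14 in Huh6 and 0.04 to 0.63 in THP-1. Every pair passed 0.1 in 4 of 7 THP-1 comparisons, where the block is given beside the IGF2 values. For some other genes the block is given too, also where not every pair passed 0.1. The lines were compared on genes that passed the filter over both lines' libraries together. Alternatives were DESeq2 1.42.0, RLE scaling, no filter, only the groups compared, the replicate block, subtraction of estimated tumour reads, and each library left out. Subtraction with the block was chosen after seeing the data.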

Additional observations from a re-analysis of the deposited data

Results flagged for a closer look

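The response to an inhibitor was called different between the lines for 19 combinations of gene and dose. The test was the interaction test of edgeR with adjustment over all genes. IRS1 at 0.2 µM PKF118-310, among the 19, entered through HepG2 only and is set apart below. Differences are HepG2 minus Huh6 on the log2 scale. At 0.2 µM PKF118-310 they were -1.85 for IGF2, 1.57 for IRS1, 0.81 for IRS2, 0.30 for IGFBP1, 0.97 for IGFBP2 and 0.96 for IGFBP4. At 5 µM iMDK they were 0.57 for IGF2, -0.34 for IGF1R, -0.49 for IGF2R, 1.78 for IGFBP1, 0.97 for IGFBP2 and 0.41 for IGFBP4. At 10 µM iMDK they were 0.91 for IGF2, -0.66 for IGF1R, -0.60 for IGF2R, 0.36 for INSR, 1.5 for IGFBP1, 1.26 for IGFBP2 and 1.01 for IGFBP4.

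IRS1 did not pass the filter on low counts in Huh6 alone and entered the test through HepG2, so its value does not show that its response differed. It rests on at most 10 counts in a Huh6 library, and it was 0.90 (adjusted p = 0.322) without Huh6 vehicle replicate 1 and 1.33 (0.068) without the Huh6 0.2 µM replicate 1. The value for IGFBP1 at 0.2 µM PKF118-310 was not called when any of 5 libraries was left out (HepG2 vehicle replicate 3, Huh6 vehicle replicate 2 or 3, or the Huh6 0.2 µM replicate 1 or 2), at adjusted p from 0.0588 to 0.197. The value for IGFBP4 at 5 µM iMDK was 0.35 (adjusted p = 0.0541) without Huh6 vehicle replicate 3.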

How the results depend on the processing

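Of 2626 values of single genes under an alternative, 2499 kept their direction and side of the threshold, 85 lost the call, 37 gained it and 5 reversed. The count of the 10 genes called stayed within 1.5 times in 258 of 281 repeats. In Huh6 at 0.2 µM PKF118-310 it was 1, against 2 with no filter, 2 with only the groups compared, and 0 to 1 with a library left out. For THP-1 with Huh6 against monoculture it was 1, against 2 with DESeq2, 3 with no filter, 0 with only the groups compared, 0 with tumour reads subtracted, with or without the block, and 0 to 1 with a library left out. For THP-1 with HepG2 given 5 µM iMDK it was 0, against 2 with no filter, 2 with the replicate block and 4 with subtraction and the block. At 10 µM it was 2, against 1 with DESeq2, 1 with only the groups compared, 1 with subtraction, which was a rise of IGF1R in place of the falls, and 5 with subtraction and the block. For Huh6 given iMDK it was 0 at both doses, against 1 with no filter at 5 µM, and at 10 µM 1 with DESeq2, 2 with no filter and 1 with the replicate block, where IGF2 was at -3.50 (adjusted p = 0.0343). The block moved the count over all genes to 927 from 283 for THP-1 with Huh6 against monoculture, and with HepG2 given iMDK to 614 from 14 at 5 µM and to 1802 from 518 at 10 µM.

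Subtraction reversed IRS1 with HepG2 against monoculture (-2.10, and -2.05 with the block) and against Huh6 (-1.18, and -1.16 with the block), and IGF1R against Huh6 with the block (-0.43). Subtraction removes reads by construction, and the cause of the other changes was not tested. RLE scaling changed no call. IRS1 and IGFBP3 had too few counts in Huh6 to pass the filter there, and were fitted only together with HepG2.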
